A study of Mus musculus with 30 samples.

Results

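Chromatin accessibility was compared between effector Treg (eTreg) and effector conventional T cells (Teff) of wild-type mice, over all 69316 peaks of the deposited table that covers 26 libraries. The comparison uses 4 of the 30 samples of the series, 2 libraries of each group, and the libraries were taken by the names they carry in that table. Both groups were sorted fresh from lymph nodes and spleen of C57BL6/J mice that carry Foxp3-IRES-hCD2, an allele in which human CD2 on the cell surface reports Foxp3 expression. eTreg were sorted as CD4+ hCD2+ cells and Teff as CD4+ hCD2- cells, and both were CCR7 low and CD62L low. The reporter thus chose the cells by Foxp3, so the peaks at Foxp3 check the sort and are no finding of the comparison. Bulk Treg, central Treg (cTreg), bulk conventional T cells (Tconv) and naive T cells (Tnaive), used below as other states, carry the same allele. BATFKO Treg carry it with Batf-/-. DKO Treg carry Foxp3KO-IRES-hCD2 with Batf-/- and were given mock, Foxp3, BATF or both retroviruses. In the Foxp3R397W set the cells were sorted as hCD2+ GFP- from animals that carry the R397W or the wild-type Foxp3 allele beside a Foxp3-IRES-GFP allele. By their titles the DKO set and the Foxp3R397W set with its control are omniATAC-seq, and the other groups used are ATAC-seq. Ages and the number of animals behind a library were not stated in the labels, so p-values measure only the spread between libraries, which may be technical. The series is about the part of Foxp3 and BATF in the differentiation of effector Treg.

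Treg restrain immune responses and depend on the transcription factor Foxp3, whereas conventional CD4+ T cells that meet antigen become helper cells that make cytokines such as IFN-gamma, IL-4, IL-17, IL-2 and IL-21. Both lineages have a resting, recirculating state with high CCR7 and CD62L and an effector state that leaves these receptors behind and enters tissues. In ATAC-seq a transposase inserts adapters into accessible DNA, and regions rich in insertions mark promoters and enhancers that proteins occupy.

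The reads in peaks were 8397351 and 8030094 in the eTreg libraries, against 10609210 and 9218097 in the Teff libraries. Scores are the authors' normalized values, each a whole number of reads times 1 factor per library, and changes are log2(score + 1) differences, eTreg minus Teff. On this scale a change of a peak with low scores is understated, and in these bulk samples fewer cells with an open site and a less open site in each cell cannot be told apart. The same libraries carry other names in the 22-library table: the 2 eTreg libraries are called wild-type Treg 3 and 4 there, and the 2 Teff libraries are called Foxp3KO Treg. The cTreg libraries are called Foxp3R397W Treg there, and the Tnaive libraries wild-type Treg 5 and 6. Over 4478 peaks with identical coordinates in both tables, the recovered read counts of these 8 libraries were equal at 99.8% to 99.9% of peaks. Every result on cTreg and Tnaive below thus also rests on the names of the 26-library table. Under the names of the 22-library table, eTreg and Teff are other libraries, and there 0 peaks were higher and 4 lower (limma; 1390 at an unadjusted p under 0.05). The libraries used here gave scores of 381 and 363 in eTreg and of 7.84 and 7.83 in Teff at the peak in the Foxp3 gene body. The mean score there was 5.17 in Tnaive and 9.27 in Tconv. The libraries called Teff thus stood near the level of Tnaive and Tconv at this peak. No Foxp3KO Treg of certain name were set beside them, so the peak cannot decide between the names Teff and Foxp3KO Treg. The summed score of 356 peaks near 13 genes of naive and central T cells was 32621 and 32404 in eTreg, against 33339 and 32519 in Teff. It was 50222 and 46184 in cTreg and 51947 and 50000 in Tnaive, so both effector groups lay below both resting groups.

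eTreg and Teff differed at 12106 peaks, 17.5% of those tested, with 5820 higher (8.4%) and 6286 lower (9.07%) in eTreg (limma, Benjamini-Hochberg adjusted p under 0.05). Among the higher peaks 4611 differed at least 2-fold, 1545 at least 4-fold and 265 at least 8-fold. Among the lower peaks 5014 differed at least 2-fold, 2012 at least 4-fold and 554 at least 8-fold, so large differences were more numerous on the lower side. In 5815 of the higher and 6282 of the lower peaks the libraries of the groups did not overlap. With 2 libraries a group a called peak nearly always shows this, so it adds no support. The share over all peaks is not given here. The median peak of the higher set scored 81.3 in eTreg and 25.8 in Teff, and that of the lower set 18.9 in eTreg and 66.0 in Teff. Called peaks lay near 5103 genes, of which 928 had peaks in both directions. The count of higher peaks was 3343 without eTreg 1, 3152 without eTreg 2, 3428 without Teff 1 and 3399 without Teff 2. The count of lower peaks was 3492 without Teff 2 and 4278 to 4431 without any other of the 4 libraries.

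**Figure D1:**
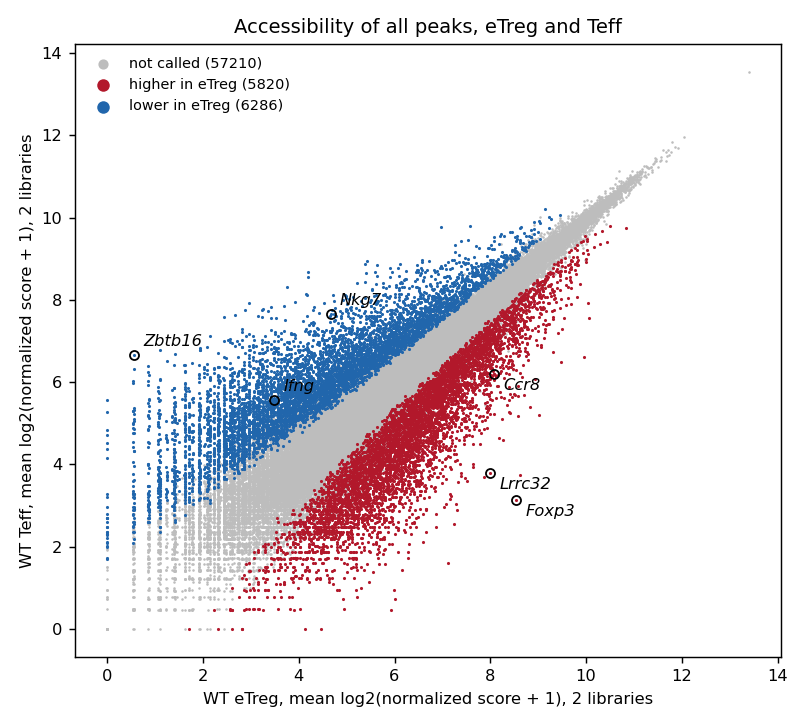
Mean log2(normalized score + 1) of every peak in the 2 eTreg libraries (horizontal) and the 2 Teff libraries (vertical), with the 5820 peaks higher and the 6286 lower in eTreg in colour. Circles mark the peak of largest change named near each of 6 genes; Foxp3 and Lrrc32 lie far to the right of the diagonal and Zbtb16 far above it.

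Genes that define Treg were more accessible in eTreg. Of 250 peaks near the 20 genes of the Treg identity list, 98 were higher (39.2%) and 9 lower (3.6%), and 17 of the 20 genes had at least 1 higher peak. The median change over the list was 0.62, against 0.04 over all peaks. Of all peaks 8.4% were higher and 9.07% lower, and the counts of the other lists below stand against these shares. Higher peaks stood at 3 of 4 peaks of Foxp3, 11 of 18 of Il2ra, 13 of 22 of Ctla4, 16 of 41 of Ikzf2 and 9 of 10 of Lrrc32. Tnfrsf18 and Capg had no called peak among 3 and 5, and Il2rb had 1 lower peak of 8 and none higher.

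At Foxp3 the gene body peak (chrX:7583922-7584322, 3639 bp past the start site) was 5.40 higher (SE 0.50, adjusted p = 1e-06). The peak over the Foxp3 start site (chrX:7579463-7579863) scored 76.5 and 59.7 in eTreg, against 7.84 and 6.85 in Teff (3.04, SE 0.31, adjusted p = 3.4e-08). Ctla4 encodes an inhibitory receptor that takes CD80 and CD86 from antigen-presenting cells. A peak at -21802 bp from its start site scored 188 and 206 in eTreg, against 13.1 and 17.6 in Teff (3.61, SE 0.35, adjusted p = 3.9e-08). The Ctla4 promoter peak itself was open in both groups, at 513 and 600 in eTreg and 336 and 329 in Teff (0.74, adjusted p = 0.030). The difference at the Ctla4 promoter was thus smaller than at the distal site.

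Il2ra encodes the high-affinity chain of the IL-2 receptor, on which Treg depend. A weak peak at -14354 bp from its start site scored 21.1 and 12.9 in eTreg and had 0 reads in both Teff libraries (adjusted p = 1.8e-07), so no fold is given. The 11 higher Il2ra peaks had changes of at least 0.86, with a median of 1.46. Ikzf2 encodes Helios, and its called peaks went both ways. A peak in the gene body (chr1:69599399-69599799) scored 136 and 146 in eTreg, against 17.4 and 21.5 in Teff (2.80, SE 0.42, adjusted p = 1.4e-05). Another, outside the gene (chr1:69453966-69454366), scored 13.3 and 8.19 in eTreg, against 117 and 109 in Teff (-3.31, SE 0.45, adjusted p = 4.3e-06). Of its 18 called peaks 16 were higher, with changes of 0.90 to 2.81. Swap70, which encodes a signalling adaptor, had a peak at 350 and 318 in eTreg, against 44.4 and 48.9 in Teff (2.81, SE 0.27, adjusted p = 1.5e-08).

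**Figure D2:**
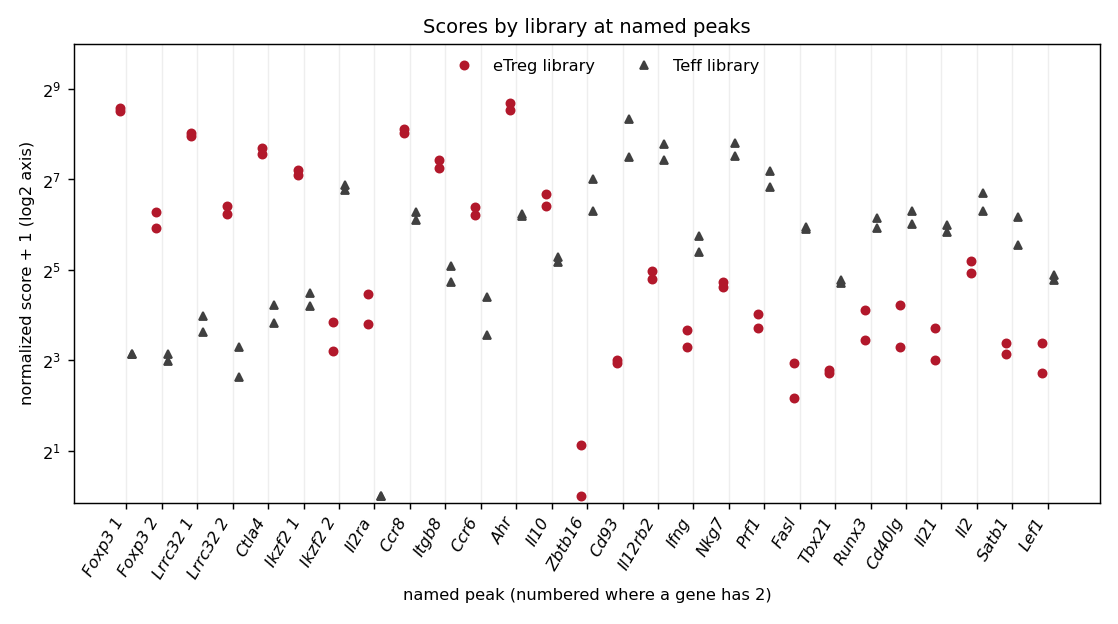
Normalized score + 1 (log2 axis) of each library at 27 named peaks, eTreg circles left of Teff triangles. The groups do not overlap at any of these peaks; the Il2ra peak has 0 reads in both Teff libraries, and Ikzf2 has a higher and a lower peak.

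The longest stretch of neighbouring peaks with the same call lay beside Lrrc32, which encodes GARP, the surface anchor of latent TGF-beta on activated Treg. Over 65.5 kb (chr7:98523959-98589421) all 19 consecutive peaks were higher in eTreg, with a median change of 3.18. Their summed score was 1289 and 1366 in eTreg, against 151 and 171 in Teff. The interval between Lrrc32 and its neighbour Emsy is known in mice to hold a distal enhancer of Lrrc32. With the flanks of 60 kb, 26 of 28 peaks were higher and none lower, and the other 2 were not called. Among peaks above the median score, the largest higher change of the comparison lay here (chr7:98562962-98563362). It scored 121 and 156 in eTreg, against 0.87 and 3.91 in Teff (5.51, SE 0.30, adjusted p = 6.3e-13). By nearest gene it counts to Emsy, which encodes a chromatin protein, as do 15 of the higher peaks. Within Lrrc32 a peak (chr7:98491686-98492086) scored 261 and 249 in eTreg, against 11.3 and 14.7 in Teff (4.21, SE 0.31, adjusted p = 3.7e-10). At both of these peaks cTreg means, 291 and 209, were also far above Tnaive means, 3.86 and 3.88, so the openness was there in the resting Treg state. At most peaks of the stretch the cTreg mean was above the eTreg mean, as at the peak with 291, and at a few it was below.

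**Figure D3:**
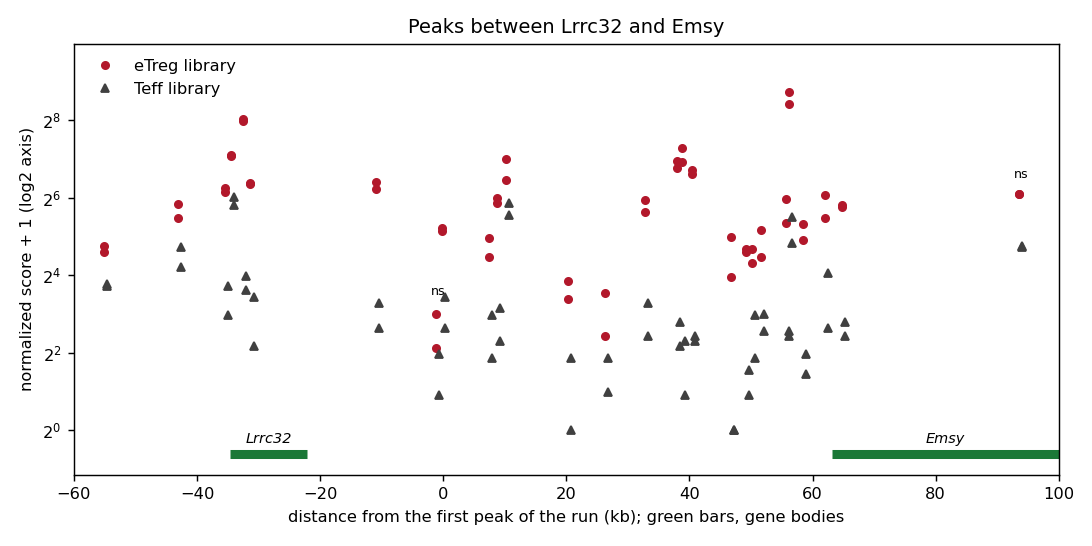
Normalized score + 1 (log2 axis) of each library at the 28 peaks in and around the run, by distance from its first peak (kb), with the gene bodies as bars. eTreg circles lie above Teff triangles along the whole stretch; ns marks the 2 peaks not called.

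Other long stretches of higher peaks were 11 at Mical3 over 113 kb and 10 between Map4k4 and Il1r2 over 85.2 kb. Il1r2 encodes the decoy receptor for IL-1. The Il1r2 stretch (chr1:40002142-40087320) summed to 1228 and 1134 in eTreg, against 372 and 392 in Teff. In all, 10 stretches of at least 8 higher peaks and 3 of at least 8 lower peaks were found. These stretches were named after their values were seen.

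Genes for suppression and for tissue Treg functions mostly showed more open sites in eTreg, with exceptions. Of 211 peaks near 22 such genes, 41 were higher (19.4%) and 13 lower (6.16%). Areg, the growth factor amphiregulin that Treg use in tissue repair, had 3 of 5 peaks higher and none lower. A peak at -15254 bp from its start site scored 343 and 339 in eTreg, against 33.1 and 42.1 in Teff (3.16, SE 0.42, adjusted p = 2.7e-06). Nfil3, a transcription factor gene, had 4 of 9 peaks higher, the strongest at 109 and 99.5 in eTreg against 8.71 and 7.83 in Teff (3.50, SE 0.49, adjusted p = 4.9e-06). Ccr8 encodes a chemokine receptor of tissue Treg, and its promoter peak scored 275 and 262 in eTreg, against 67.9 and 77.3 in Teff (1.88, SE 0.24, adjusted p = 1.7e-06). Of the 5 Ccr8 peaks 1 was higher and 1 lower. The lower one scored 67.6 and 56.2 in eTreg, against 122.8 and 105.7 in Teff (-0.88, SE 0.26, adjusted p = 0.017). Il1rl1, the IL-33 receptor ST2, had 5 of 12 peaks higher and 1 lower. Icos, a costimulatory receptor, had 6 higher and 2 lower of 27, and Tigit, an inhibitory receptor, 4 higher and 1 lower of 15. Il10 had 1 higher and 1 lower peak of 13, and the higher one scored 84.2 and 100.7 in eTreg, against 34.8 and 38.2 in Teff (1.31, SE 0.36, adjusted p = 0.0092). None of 14 peaks of Maf and none of 9 of Klrg1 was called, and Prdm1, encoding Blimp-1, had 1 higher and 3 lower of 20. Batf had 1 higher peak of 8, a weak one at 11.1 and 10.5 in eTreg against 4.35 and 1.96 in Teff (1.57, SE 0.54, adjusted p = 0.040). Irf4, its partner in effector T cells, had 4 higher of 11 and none lower.

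Type 1 helper genes were more accessible in Teff. Of 184 peaks near 20 genes 46 were lower in eTreg (25%) and 9 higher (4.89%), and the median change was -0.23. Il12rb2, the signalling chain of the IL-12 receptor, had 7 of 9 peaks lower, and these 7 formed an unbroken stretch of 73.9 kb. Its promoter peak scored 26.6 and 30.4 in eTreg, against 171 and 218 in Teff (-2.72, SE 0.22, adjusted p = 7.3e-10). At Ifng 5 of 24 peaks were lower and 1 higher. The Ifng promoter peak (chr10:118440718-118441118) scored 57.6 and 60.9 in eTreg, against 367 and 386 in Teff (-2.65, SE 0.45, adjusted p = 9.0e-05). Fasl, which encodes a death ligand, had 7 of 16 peaks lower, and Runx3, a transcription factor of type 1 and cytotoxic cells, 6 of 26. Tbx21, which encodes the master regulator T-bet, had 1 of 8 peaks lower, which scored 5.54 and 5.85 in eTreg, against 25.3 and 26.4 in Teff (-2.0, SE 0.54, adjusted p = 0.0083).

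Cytotoxic and NK receptor genes had mostly lower peaks in eTreg among those called. Of 52 peaks near 13 of the 14 listed genes, 14 were lower in eTreg (26.9%) and 4 higher (7.69%). All 3 peaks of Prf1, perforin, were lower, and the strongest scored 12.2 and 15.2 in eTreg, against 112 and 145 in Teff (-3.14, SE 0.28, adjusted p = 3.8e-09). Tnaive had a mean of 461 at that peak, above Teff. The promoter of Nkg7, a granule protein, scored 25.5 and 23.4 in eTreg, against 182 and 222 in Teff (-2.99, SE 0.38, adjusted p = 1.4e-06), and Tnaive a mean of 5.15. A stretch of 8 lower peaks over 285 kb covered 6 Klra genes, which encode Ly49 receptors, and summed to 25.5 and 31.6 in eTreg, against 399 and 422 in Teff. Another of 7 lower peaks covered Klre1, Klrd1 and Klrk1. Klra genes are close copies of each other, and how reads that fit several copies were placed is not given in the sources used here. The summed score of the cytotoxic list was 4527 and 4215 in eTreg, against 5567 and 5547 in Teff, and 8256 and 8193 in Tnaive. Among genes that define other cells, Cd8a had 1 of 3 and Cd8b1 2 of 4 peaks higher in eTreg and none lower, and the 1 peak of Ncr1 was not called. Whether a share of NK-like or innate-like cells among the sorted Teff bears on these differences was not tested.

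Zbtb16 encodes PLZF, the factor that directs innate-like T cells such as NKT cells, and 13 of its 15 peaks were lower in eTreg, with a median change of -3.64 and none higher. The strongest scored 0 and 1.17 in eTreg, which is 0 and 1 read, against 78.4 and 128 in Teff (adjusted p = 8.9e-07). There the means were 0 in cTreg, 2.55 in Tnaive, 7.24 in bulk Treg and 32.2 in bulk Tconv. Gcnt2, a glycosyltransferase gene, had a peak at 1.11 and 1.17 in eTreg, 1 read each, against 94.9 and 124 in Teff (adjusted p = 2.0e-08). Cd93, a surface glycoprotein gene, had one at 6.65 and 7.02 in eTreg, against 179 and 324 in Teff (-4.95, SE 0.65, adjusted p = 2.3e-06). Of the 15 peaks with the largest lower change, 13 had Tnaive means of at most 22.5. The other two, at Nrp2 and N4bp2, had Tnaive means of 115 and 221.

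Type 2 and type 17 genes had called peaks in both directions, with lower shares near the 9.07% of all peaks and higher shares above the 8.4%. Of 80 type 2 peaks 13 were higher (16.25%) and 9 lower (11.25%), and of 137 type 17 peaks 22 were higher (16.1%) and 15 lower (10.9%). At the Il4 and Il13 genes, which neighbour each other, the groups differed at 1 of 5 peaks. It lay 7790 bp past the Il13 start site and scored 1.11 and 0 in eTreg, which is 1 and 0 reads, against 50.5 and 75.3 in Teff (adjusted p = 3.4e-09). An Il4 peak scored 58.7 and 56.2 in eTreg and 83.6 and 94.9 in Teff and did not pass the test (adjusted p = 0.19). Il4ra, an IL-4 receptor chain, had 2 of 10 peaks higher. Among type 17 genes, Ahr, a receptor for dietary and microbial ligands, had 7 of 15 peaks higher and Ccr6, a chemokine receptor, 4 of 6, with none lower. The strongest Ahr peak scored 369 and 413 in eTreg, against 74.0 and 72.4 in Teff (2.40, SE 0.35, adjusted p = 9.3e-06). Il23r, an IL-23 receptor chain, had 4 lower and 1 higher of 9, and its peak of smallest p scored 34.4 and 51.5 in eTreg, against 443 and 552 in Teff (-3.52, SE 0.30, adjusted p = 2.3e-09). Il17a had no called peak of 5: its peak of smallest p scored 12.2 and 12.9 in eTreg and 60.1 and 47.0 in Teff (-2.0, SE 0.77, adjusted p = 0.074).

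Among genes for help to other cells, more peaks were lower than higher in eTreg. Of 130 peaks near 17 genes of follicular help and activation cytokines, 28 were lower (21.5%) and 8 higher (6.15%). Of the 17 genes 9 had a lower peak and 4 a higher one. Cd40lg, the ligand that licenses B cells, had 8 of 13 peaks lower, Il21 had 5 of 13 and Il2 had 4 of 6, and none of these 3 genes had a higher peak. A Cd40lg peak scored 8.86 and 17.6 in eTreg, against 77.5 and 63.6 in Teff (-2.40, SE 0.32, adjusted p = 3.4e-06). At Il2, the growth factor that Treg consume and do not make, a peak at -31297 bp from the start site scored 35.5 and 29.3 in eTreg, against 103 and 78.3 in Teff (-1.45, SE 0.31, adjusted p = 0.0011). Bcl6, the factor of follicular helper cells, went the other way with 3 of 11 peaks higher, and the one of smallest p scored 154 and 143 in eTreg, against 22.6 and 44.0 in Teff (2.19, SE 0.27, adjusted p = 6.8e-07).

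Genes of the resting state were split gene by gene, although both groups were sorted as CCR7 low and CD62L low. Of 356 peaks 51 were higher (14.3%) and 60 lower (16.9%). Satb1, a chromatin organizer, had 13 lower of 25 peaks, and Lef1, a TCF family factor, had 13 lower and 1 higher of 40. Foxp1, a forkhead factor, had 21 higher and 8 lower of 86, and Bach2, a repressor of effector genes, 12 higher and 6 lower of 66. The Satb1 peak of smallest p scored 7.76 and 9.36 in eTreg, against 46.2 and 71.4 in Teff (-2.62, SE 0.33, adjusted p = 1.2e-06), while cTreg had a mean of 182 and Tnaive of 325. A Bach2 peak scored 167 and 166 in eTreg, against 48.8 and 61.6 in Teff (1.59, SE 0.21, adjusted p = 2.2e-06), with means of 227 in cTreg and 36.6 in Tnaive. The lower Satb1 site was thus open in both resting groups, and the higher Bach2 site had a higher mean in resting Treg than in Tnaive. Tcf7 had 3 lower peaks of 17, and Ccr7 5 lower and 2 higher of 20.

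The factors that answer T cell receptor signals showed no common direction, with 34 of 299 peaks higher and 34 lower (11.4% each). These shares were not far from the 8.4% and 9.07% of all peaks. Among AP-1 genes Jun had 1 higher and 1 lower of 11, Fosl2 2 lower of 6, Fos 1 lower of 14, and Fosb and Batf 1 higher of 8 each. Junb and Jund had none called of 3 each, Batf3 none of 7 and Fosl1 none of 1. Nfatc1 had 6 lower of 27 and Nfatc2 4 lower of 23, with none higher, and Ikzf1, encoding Ikaros, 7 lower of 21. Nfkb1 had 10 higher and 2 lower of 32, Rel 4 higher of 7 and Tox, a factor of chronic stimulation, 9 higher and 3 lower of 42. An Egr2 peak scored 111 and 90.1 in eTreg, against 8.71 and 10.8 in Teff (3.24, SE 0.40, adjusted p = 1.1e-06). In the IL-2 and STAT5 list 26 of 158 peaks were higher (16.5%) and 15 lower (9.49%). Besides Il2ra, Cish, a feedback inhibitor, had 3 of 5 peaks higher, and Jak1, a kinase of the IL-2 receptor, had 6 lower and 1 higher of 27.

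Chemokine receptor and adhesion genes changed gene by gene, with 27 of 164 peaks higher (16.5%) and 24 lower (14.6%). Itgb8, a subunit of the integrin that releases active TGF-beta, had 8 of 11 peaks higher. One in its gene body scored 173 and 151 in eTreg, against 33.1 and 25.4 in Teff (2.44, SE 0.36, adjusted p = 1.1e-05). Itgae, the integrin chain CD103, had 6 of 9 higher. Itga1, a subunit of a collagen receptor, had 7 of 13 lower, Itgb1 5 of 11 and Ccr2 3 of 7, with none higher at these 3 genes. Cxcr3, a receptor of type 1 cells, had 2 of 3 peaks lower, among them its promoter at 70.9 and 66.7 in eTreg, against 214 and 183 in Teff (-1.51, adjusted p = 0.00032).

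Markers of other lineages were sparse in the table. The B cell list had 21 peaks near 6 of 10 genes, 4 higher (19.05%) and 0 lower. It summed to 1445 and 1522 in eTreg, against 987 and 947 in Teff. No peak was assigned to Ms4a1 or Cd79a, and the difference was led by Blk at 203 and 190 in eTreg, against 24.4 and 41.1 in Teff (2.59, SE 0.55, adjusted p = 0.0014). The myeloid list had 24 peaks near 7 of 11 genes, 1 higher (4.17%) and 2 lower (8.33%), with none assigned to Csf1r or Adgre1. Its sums were 1170 and 1091 in eTreg and 1166 and 1172 in Teff. The erythroid list had 1 of 7 peaks higher (14.3%), and the housekeeping list had 5 higher (9.09%) and 3 lower (5.45%) of 55.

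**Figure D4:**
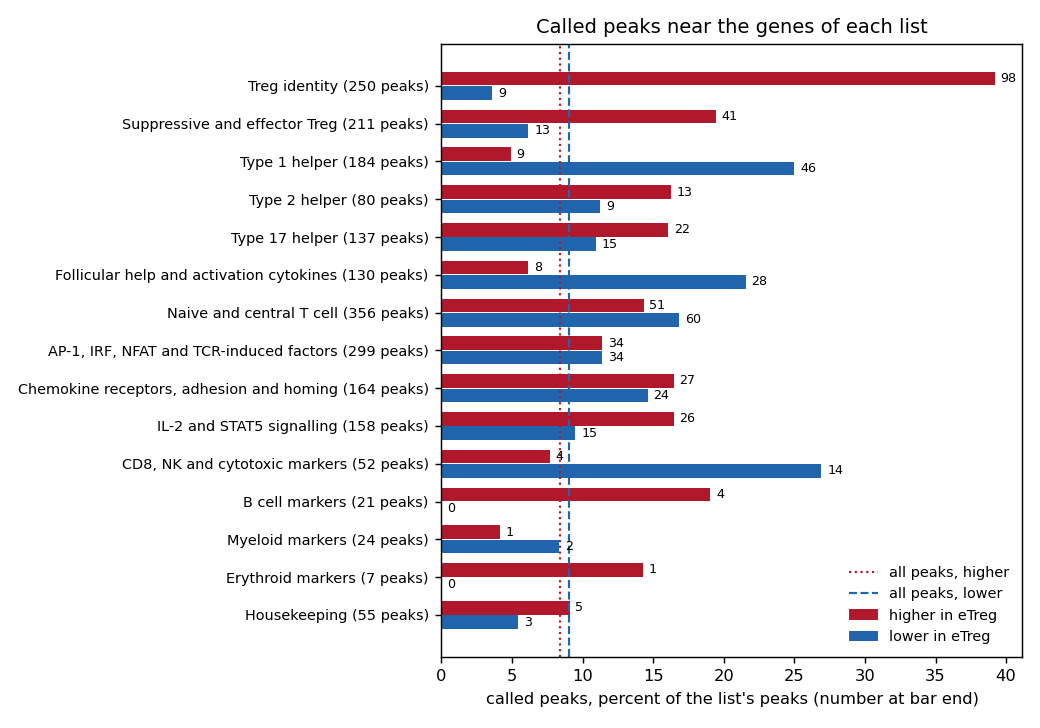
Percent of the peaks near each list's genes called higher (upper bar) or lower (lower bar) in eTreg, with the number of peaks at the bar end and the shares over all peaks as dotted and dashed lines. The Treg identity list reaches 39.2% higher; the type 1, follicular help and cytotoxic lists have more than 20% of their peaks lower.

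Genes outside the lists held many of the largest differences. The 15 largest higher peaks included those near Ppm1b at 386 and 405 in eTreg against 12.2 and 12.7 in Teff (4.88, SE 0.34, adjusted p = 1.4e-10), and Rbm45 at 499 and 540 in eTreg against 28.7 and 45.0 in Teff (3.81, SE 0.26, adjusted p = 2.3e-11). Both were open in cTreg as well, with means of 312 and 269. Other large higher peaks were nearly closed in cTreg, such as that near E2f7, which encodes a cell cycle repressor. It scored 162 and 139 in eTreg, against 10.4 and 1.96 in Teff (4.70, SE 0.62, adjusted p = 2.7e-06), with a cTreg mean of 1.55. Over all genes, listed or not, Foxp1 led by number of higher peaks (21 of 86), then Nsmce2 (17 of 39), Ikzf2 (16 of 41) and Emsy (15 of 18). Ctla4 (of 22), Fam169b (of 24), Hdac9 (of 25), Ldlrad4 (of 36) and Rad51b (of 49) had 13 each. Foxp1 also had 8 lower peaks, Rad51b 4, Ikzf2 2, and Nsmce2, Emsy, Ctla4 and Fam169b 1 each. Over all peaks 8.4% were higher and 9.07% lower, and a gene with many peaks can lead such a count by their number. Hdac9 encodes a histone deacetylase that acts in Treg of mice. By number of lower peaks Gramd3 (15 of 28) and Tgfbr3 (15 of 27) led, followed by Atp10a (14 of 39). Lef1 (of 40), Satb1 (of 25), Syne1 (of 26) and Zbtb16 (of 15) had 13 each. Among these genes only Lef1 had a higher peak, 1. Tgfbr3 encodes a TGF-beta co-receptor, and its peak of smallest p scored 56.5 and 52.7 in eTreg, against 319 and 253 in Teff (-2.36, SE 0.17, adjusted p = 1.4e-10).

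Differences were rarer at promoters than elsewhere. Of 8426 peaks over a listed start site, 205 were higher (2.43%) and 119 lower (1.41%). The shares were 8.54% and 10.5% in gene bodies, 9.39% and 9.54% outside genes within 100 kb, and 14.1% and 10.3% beyond 100 kb. Start sites could be set for 79.9% of protein-coding genes, so some peaks at promoters count here as gene body or outside genes. The promoters named next were chosen after their values were seen. Among listed genes besides Foxp3, the steepest lower promoter was that of Xcl1, a lymphocyte chemokine, at 13.3 and 7.02 in eTreg against 132 and 176 in Teff (-3.84, SE 0.60, adjusted p = 2.8e-05), and the steepest higher one that of Il1rl1 at 22.2 and 15.2 in eTreg against 2.61 and 2.94 in Teff (2.36, SE 0.46, adjusted p = 0.00043). Cxcl3 and Cxcl2, genes for chemokines that draw neutrophils, had promoter peaks higher in eTreg. Cxcl3 scored 143 and 144 in eTreg, against 27.0 and 22.5 in Teff (2.49, SE 0.41, adjusted p = 5.7e-05), and Cxcl2 116 and 125 in eTreg, against 35.7 and 25.4 in Teff (1.97, SE 0.35, adjusted p = 0.00014).

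The sequences of these promoters, 250 bases before to 50 after the start site (RefSeq, GRCm38.p6), were searched on both strands for 15 short motifs. Of 129 start sites under lower peaks, 10 held the T-box motif AGGTGTGA (7.75%), against 3 of 214 under higher peaks (1.40%), 68 of 9573 under peaks not called (0.710%) and 1.15% of all 21263 listed promoters. The NF-kB motif was held by 7 of the 214 under higher peaks (3.27%), 0 of the 129 under lower peaks, 0.387% of those under peaks not called and 0.423% of all. The ETS motif ACAGGAAG was held by 17 under higher (7.94%) and 8 under lower peaks (6.202%). Its share was 3.37% under peaks not called and 3.23% of all. The forkhead motif TGTTTAC was held by 9 (4.21%) and 2 (1.55%), against 2.32% under peaks not called and 3.005% of all. The AP-1 motif TGANTCA, in which N is any base, was held by 13 (6.07%) and 13 (10.1%). Its share was 4.30% under peaks not called and 6.99% of all, which is above that under higher peaks. The composite AP-1 and IRF motif (AICE) that BATF and IRF4 bind together was in none of the called promoters and in 6 of those not called. The form in which both parts adjoin was also in none of the called promoters and in 7 of those not called. These counts describe letters in a fixed window and not binding, and most called peaks lie outside promoters, where no sequence was used.

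Printed are the Foxp3 and Ifng promoters, which carry the marker genes of each side, the promoters of Cxcl3 and Cxcl2 as the pair with the largest change among those with the NF-kB motif, and those of Nkg7 and Samd3 as examples with the T-box motif. Capitals mark matches of the T-box, NF-kB, AP-1, ETS, RUNX or forkhead motif; in the 4 promoters that have any, they are the NF-kB match in Cxcl3 and Cxcl2 and the T-box match in Nkg7 and Samd3. Foxp3 and Ifng held none of these 6 motifs in the window. Cxcl3 (chr5:90785851-90786150) and Cxcl2 (chr5:90903649-90903948) hold the same 10 capital letters on the plus strand. In Nkg7 (chr7:43436888-43437187, plus strand) the match lies at positions 237 to 244 of the printed run. In Samd3 (chr10:26229457-26229756, plus strand) it lies at 236 to 243 in reverse, and the Samd3 promoter peak scored 86.4 and 89.0 in eTreg, against 352 and 376 in Teff (-2.04, adjusted p = 9.5e-06). Foxp3 is shown at chrX:7579426-7579725 and Ifng at chr10:118440796-118441095, both on the plus strand.
Foxp3: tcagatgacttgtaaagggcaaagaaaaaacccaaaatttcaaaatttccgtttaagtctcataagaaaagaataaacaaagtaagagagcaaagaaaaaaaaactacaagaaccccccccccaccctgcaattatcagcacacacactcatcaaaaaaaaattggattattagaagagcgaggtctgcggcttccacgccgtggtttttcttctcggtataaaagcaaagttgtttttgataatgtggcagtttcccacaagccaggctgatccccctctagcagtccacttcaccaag
Cxcl3: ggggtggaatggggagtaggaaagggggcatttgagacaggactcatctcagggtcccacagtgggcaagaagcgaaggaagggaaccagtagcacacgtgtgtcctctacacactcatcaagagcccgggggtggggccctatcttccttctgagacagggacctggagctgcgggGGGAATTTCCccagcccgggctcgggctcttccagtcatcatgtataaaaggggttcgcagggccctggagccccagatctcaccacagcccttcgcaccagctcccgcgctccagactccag
Cxcl2: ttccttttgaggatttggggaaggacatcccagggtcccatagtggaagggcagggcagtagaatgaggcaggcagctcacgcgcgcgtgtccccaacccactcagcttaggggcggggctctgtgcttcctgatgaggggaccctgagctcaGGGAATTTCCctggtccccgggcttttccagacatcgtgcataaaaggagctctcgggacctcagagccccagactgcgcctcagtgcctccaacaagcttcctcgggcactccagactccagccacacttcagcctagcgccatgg
Nkg7: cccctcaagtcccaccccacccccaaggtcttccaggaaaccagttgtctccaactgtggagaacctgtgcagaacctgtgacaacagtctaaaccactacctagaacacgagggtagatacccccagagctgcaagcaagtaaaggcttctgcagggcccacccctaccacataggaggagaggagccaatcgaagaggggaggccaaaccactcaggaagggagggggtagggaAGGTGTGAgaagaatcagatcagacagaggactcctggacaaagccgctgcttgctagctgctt
Samd3: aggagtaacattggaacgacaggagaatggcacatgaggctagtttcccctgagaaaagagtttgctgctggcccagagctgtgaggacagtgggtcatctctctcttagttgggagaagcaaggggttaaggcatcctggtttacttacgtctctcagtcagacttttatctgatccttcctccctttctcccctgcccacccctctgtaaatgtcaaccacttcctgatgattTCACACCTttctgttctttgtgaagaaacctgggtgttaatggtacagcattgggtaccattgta
Ifng: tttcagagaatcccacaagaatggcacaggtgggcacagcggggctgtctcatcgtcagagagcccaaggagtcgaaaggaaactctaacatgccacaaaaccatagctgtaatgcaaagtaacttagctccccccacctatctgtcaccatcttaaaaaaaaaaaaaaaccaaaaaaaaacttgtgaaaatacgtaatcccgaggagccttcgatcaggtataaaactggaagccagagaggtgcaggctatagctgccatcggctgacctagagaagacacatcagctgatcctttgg

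The called peaks were then followed in the resting states. Of the 5820 higher peaks, eTreg stood at least 2-fold above cTreg in 2744 (47.1%), within 2-fold of it in 2636 (45.3%) and at least 2-fold below it in 440 (7.56%). Of the 6286 lower peaks, Teff stood at least 2-fold above Tnaive in 1512 (24.1%), within 2-fold in 2913 (46.3%) and at least 2-fold below in 1861 (29.6%). Among the 4 groups eTreg, cTreg, Tnaive and Teff, eTreg had the lowest mean in 4663 of the lower peaks (74.2%), and Tnaive had the highest in 3430 of them (54.6%) and Teff in 2585 (41.1%). Of the higher peaks, eTreg had the highest mean in 4235 (72.8%) and cTreg in 1346 (23.1%). Many sites with less access in eTreg than in Teff were thus sites that Tnaive also held open. These shares describe the chosen peaks, carry no test and include the libraries that chose them.

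Other lineage comparisons that share no library with this one called many of the same peaks. All comparisons, those of the mutants below included, came from 1 fit and share its estimate of spread at each peak. The overlaps are thus not fully independent. In bulk Treg against bulk Tconv 10.1% of all peaks were higher and 9.92% lower. Of the 5820 peaks higher in eTreg, 3277 (56.3% of them and 46.7% of the other list) were higher in that comparison and 29 lower. Of the 6286 lower peaks, 3252 (51.7% and 47.3%) were lower there and 12 higher. In cTreg against Tnaive 8.8% of all peaks were higher and 7.82% lower. There 2721 of the higher peaks (46.8% and 44.6%) were higher and 33 lower, and 2349 of the lower peaks (37.4% and 43.4%) were lower and 137 higher. Both comparisons called 2229 of the higher peaks in the same direction (38.3%) and 2057 of the lower (32.7%). Neither did so for 2051 of the higher (35.2%) and 2742 of the lower (43.6%). With any 1 of the 4 libraries left out, the shared higher peaks numbered 2042 to 2136 for bulk Treg and 1767 to 1830 for cTreg. The shared lower peaks numbered 2151 to 2498 and 1568 to 1813.

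The mutants were set beside the same peaks. In BATFKO Treg against wild-type Treg 0.062% of peaks were higher and 1.43% lower. Of the 5820 peaks higher in eTreg than in Teff, 372 were lower in BATFKO Treg (6.39%, which is 37.6% of all peaks lower there) and 1 was higher. Of the 6286 lower peaks, 16 were lower in BATFKO Treg (1.62% of that list) and 9 were higher. In Foxp3R397W Treg against its wild-type control 0.776% of peaks were higher and 1.85% lower. Of the higher peaks, 696 were lower in the mutant (11.96%, and 54.2% of all peaks lower there) and 1 was higher. Of the lower peaks, 450 were higher in the mutant (7.16%, and 83.6% of all peaks higher there) and 21 were lower. The control columns of that mutant are named only as wild-type for Foxp3, and both pairs carry cTreg and eTreg names in the 22-library table, so this comparison rests on the names of 1 table. With any 1 of the 4 eTreg and Teff libraries left out, the 372 became 200 to 209 and the 696 became 415 to 476, and the 16 became 3 to 9.

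Median scores over the called peaks put the groups in order. Over the 5820 higher peaks the medians were 80.9 and 80.8 in eTreg and 41.8 and 41.9 in cTreg. They were 52.0 and 51.8 in BATFKO Treg against 62.3 and 57.2 in bulk wild-type Treg. They were 31.0 and 32.8 in Foxp3R397W Treg against 48.9 and 49.5 in its control. DKO Treg had 53.4 and 61.0 with both factors returned, 40.9 and 43.0 with Foxp3, 35.9 and 35.5 with BATF and 28.5 and 28.4 with mock virus. Teff had 25.3 and 25.4, Tconv 22.9 and 22.7 and Tnaive 15.3 and 15.6. DKO Treg with both factors thus lay above those with either, without overlap. Those with mock virus lay just above Teff, but Teff chose these peaks as low, and the DKO libraries are omniATAC-seq and those of Teff ATAC-seq. Protocol and cell state cannot be told apart where groups of both protocols are set side by side. Over the 57210 peaks not called, the medians ran from 39.1 to 45.6 in DKO Treg and from 45.5 to 53.2 in the other groups. Over the 6286 lower peaks the medians were 18.8 and 18.7 in eTreg, 25.2 and 29.9 in DKO Treg with both factors, 44.3 and 49.9 with mock virus, 61.8 and 70.4 in Teff and 79.2 and 81.6 in Tnaive.

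**Figure D5:**
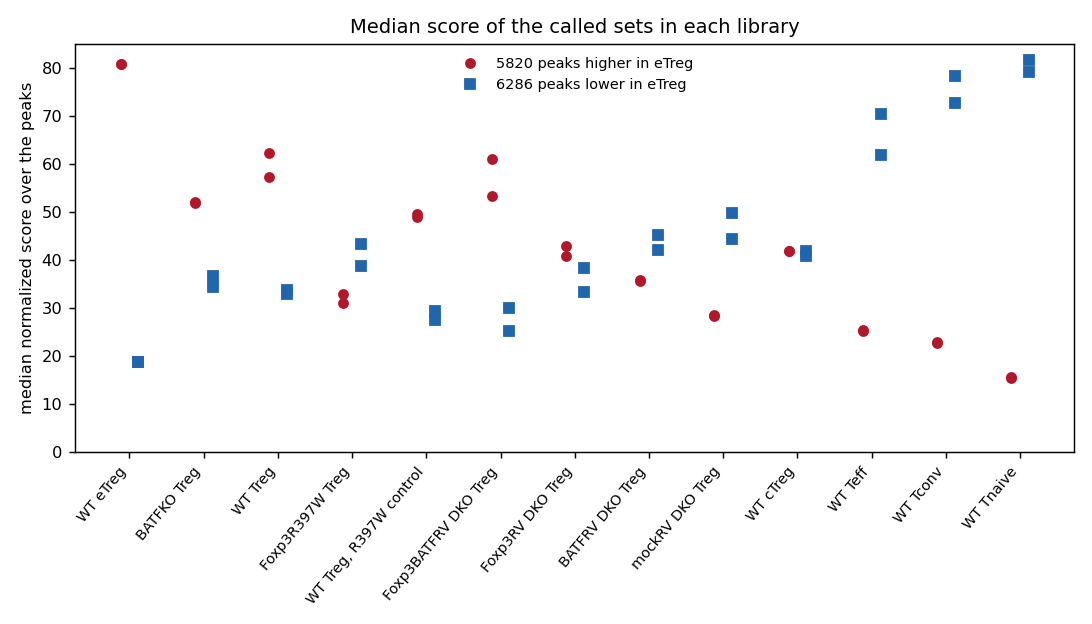
Median normalized score over the 5820 peaks higher (circles) and the 6286 lower (squares) in eTreg than in Teff, for each of the 26 libraries in 13 groups of 2. eTreg and Teff chose the peaks; among the other groups the circles run from 62.3 in a bulk Treg library to 15.3 in a Tnaive library.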

How the data were processed

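ATAC-seq libraries of sorted T cells were compared in the deposited table of 26 libraries. Per the submitters' processing notes, the tools included Bowtie2 2.4.1, MACS2 2.2.7.1, DiffBind 3.4.11 and edgeR 3.36.0, with the build mm10; no parameters were given. The deposited values are a normalized signal per peak, made by the authors: within 0.02 reads, 100% of them were whole reads times 1 factor per library. Reads in peaks ran from 3716499 to 25462278 over the 26 libraries.

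Here log2(score + 1) of all 69316 peaks was fitted with limma 3.58.1 (R 4.3.3, trend and robust variance) with all 13 groups in 1 model, which left 13 residual degrees of freedom. A peak was called at a p under 0.05 after Benjamini-Hochberg adjustment over all peaks. The median SE of a change was 0.34. Each peak counts to the closest body of a protein-coding gene, up to 100 kb away (RefSeq, GRCm38.p6), which need not be the gene they act on. Promoters are 250 bases before to 50 after a RefSeq start site. Named are, per direction, the 15 largest called changes among peaks above the median score and the 10 genes with the most called peaks, from every list the 4 genes with the lowest adjusted p, and a fixed set of genes. A gene fixed or listed is shown at its peak of smallest p. Members, lists and tests were chosen with earlier results of these data known. Promoters and stretches of peaks were chosen after their values were seen. The replicate numbers of eTreg and Teff mark no shared animal or day in the labels. A few genes are not reported here singly, though list counts include them. Alternatives were another pseudocount, a filter on low scores, quantile normalization, a fit of both groups alone, a test against a 1.5-fold change, a replicate block, leaving out each library, the library names of the 22-library table, a gene distance of 10 kb, and edgeR 4.0.16 on the recovered reads.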

Additional observations from a re-analysis of the deposited data

Results flagged for a closer look

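At 42 of the 119 named peaks the difference between eTreg and Teff departed from that between cTreg and Tnaive. The test was limma on the difference between the changes, with a Benjamini-Hochberg adjusted p under 0.05 over all peaks. The share of all peaks that passed it is not given here, so the 42 cannot be set against a background. The values below are the eTreg minus Teff change less the cTreg minus Tnaive change, on the log2 scale. Since most peaks were named for their size in the effector comparison, a larger change there is in part a product of that choice.

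Among genes of helper cytokines and their regulators the value was -5.30 at Il13, -1.78 at Il4, -2.36 at Stat6, -2.02 at Gata3 and 1.06 at Il4ra. It was -2.45 at Ifng, -2.17 at Il12rb2, -1.72 at Cd40lg and -3.54 at Rora. At Ifng the change of the distal peak was -2.09 between eTreg and Teff and 0.36 between cTreg and Tnaive. The Il4 peak was not called between eTreg and Teff.

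Among cytotoxic and innate-like genes it was -3.99 at Nkg7, -1.52 at Prf1, -1.86 at Gzmb, -1.78 at Fasl and -4.80 at Zbtb16. The change of the Nkg7 promoter was -2.99 between eTreg and Teff, and its change between cTreg and Tnaive was 1.0.

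At genes of Treg and of IL-2 signalling it was -4.56 at the Ikzf2 peak outside the gene, -4.52 at Il2rb, 2.37 at Il2ra, -1.20 at Jak1, -2.31 at Itgb8 and -1.41 at Irf4. The Il2rb peak changed by -2.14 between eTreg and Teff and by 2.38 between cTreg and Tnaive. Itgb8 and Irf4 were higher in Treg in both comparisons, with the larger change between the resting groups.

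Among genes of resting and activated T cells it was -1.78 at Satb1, -1.04 at Bach2, -1.53 at Foxp1, -1.57 at Jun and -2.16 at Ccr9. At the remaining peaks it was -3.35 at Nrp2, -1.35 at Syne1, -2.70 at Gnptab, 6.16 at E2f7, -6.02 at Asap2, 4.08 at Rad51b and -3.09 at Gcnt2. It was -2.99 at Man2a1, -4.58 at Srbd1, -2.13 at Arhgap26, -1.48 at Gramd3, -1.81 at Rbm45 and -3.52 at Cd93. It was -3.78 at N4bp2, -1.80 at Tgfbr3, -1.55 at Atp10a and -5.28 at Slc35f3. E2f7 had the largest positive value, with a change of 4.70 between eTreg and Teff and of -1.46 between cTreg and Tnaive. The latter change was not called (limma, adjusted p = 0.12). It rests on low means, 1.55 in cTreg and 5.78 in Tnaive, so the E2f7 value depends in part on the pseudocount. At Zbtb16, Il13, Gcnt2, Il2ra and Rad51b, 1 of the groups had at most 2 reads in all, so these values depend on the pseudocount.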

How the results depend on the processing

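Of 110 called named peaks, 95 were called under all 11 alternatives run for them, which do not include the names of the 22-library table. The count of called peaks (12106, with 5820 higher and 6286 lower) was 19384 (10533 and 8851) with only both groups fitted, 4108 (1718 and 2390) against a 1.5-fold change and 4 (0 and 4) under the names of the 22-library table. It was 7376 higher and 6951 lower with a pseudocount of 5, and 7800 and 6846 by edgeR. The lowest and highest counts with 1 library left out were 6891 and 7859, with 3152 to 3428 higher and 3492 to 4431 lower. Peaks shared with other comparisons, in the order bulk Treg higher and lower, cTreg higher and lower, BATFKO lower (of the higher and of the lower peaks), and R397W lower and higher, numbered 873, 887, 793, 595, 52, 0, 37 and 9 against a 1.5-fold change. Under the names of the 22-library table they numbered 0, 0, 0, 4, 0, 0, 0 and 0. With 1 library left out they ran from 2042 to 2136, 2151 to 2498, 1767 to 1830, 1568 to 1813, 200 to 209, 3 to 9, 415 to 476 and 318 to 382. With only the compared groups fitted, the peaks shared with cTreg lower numbered 3676, with BATFKO lower 928 and 41, and with R397W lower 2916 and higher 1357. A pseudocount of 5 gave 768 and 30 for BATFKO and 1294 for R397W lower, and quantile normalization 748 and 75 for BATFKO. edgeR gave 954 and 47 for BATFKO, and 2514 and 1217 for R397W. The causes were not tested. With the replicate block 5652 peaks were higher and 6189 lower, and no named peak changed its call. The deviations of eTreg 1 and Teff 1 from their group means had a correlation of 0.07 over 66709 peaks. With no paired samples to set it against, this value cannot decide whether samples of the same number share an animal or day. With 10 kb in place of 100 kb, 64 peaks of the Treg identity list were higher and 5 lower, and 5 of the type 1 list were higher and 33 lower. A further 7176 peaks had an unadjusted p under 0.05 and were not called, with 2 libraries a group.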
